A study of Mus musculus with 12 samples.

Results

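The 34 genes described here encode the machinery that brings new proteins into the ER and first modifies them: the signal recognition particle (SRP) and its receptor, the Sec61 channel with its partners, the TRAP complex, the oligosaccharyltransferase (OST) and the signal peptidase. They were chosen by symbol, and all 34 were among the 15803 transcripts with a read in some library. By complex they are 8 genes of SRP and its receptor, 7 of the Sec61 channel and its partners, 4 of TRAP, 10 of OST and 5 of the signal peptidase. Their levels were measured by ribosome profiling and RNA-seq in KPC cells, a mouse PDAC line. The cells were given 20 μM cisplatin (Cis) for 6 h or 21 h, or were controls labelled as untreated, which received PBS according to the methods and are called PBS here. How long the PBS controls were kept is not in the labels, and they were the control of both time points. All groups are of this same line, and each assay had 2 libraries per group, 12 in all. Nothing in the labels says that the 2 libraries of a group came from separate cultures, so the p-values measure the spread between these libraries, which may be technical.

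Secreted and membrane proteins carry a signal sequence that SRP binds as it leaves the ribosome. SRP slows elongation and docks the ribosome, through its receptor, onto the Sec61 channel, and the chain is threaded into or through the ER membrane. Beside the channel, signal peptidase cuts the signal sequence off and OST moves a glycan from dolichol onto asparagines. OST exists in a form built on STT3A, which sits at the channel, and a form built on STT3B, which also uses an oxidoreductase subunit, TUSC3 or MAGT1. Ductal tumor cells make much of their surface and secreted protein by this route, and many of its genes are known targets of the ER stress factor XBP1.

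Footprints are the mRNA fragments shielded by ribosomes. Their share on a coding sequence reflects how much it is being translated relative to other transcripts. RNA-seq measures the amount of the mRNA in the same relative way. Values are RPKM, reads divided by length and by the reads of the library. The length is that of the coding sequence in footprints and of the transcript in RNA-seq. Values are given after scaling between libraries by factors of 0.981 to 1.022 (footprints) and 0.9591 to 1.095 (RNA-seq). They are therefore relative, and a change shared by all transcripts of a library would not show. The paper reports, with a puromycin assay, that Cis inhibited protein synthesis, a change these values cannot measure. Each rise, fall or lack of a call below is of this relative kind. Footprint libraries held 3375480 to 5204127 reads. RNA-seq libraries held 1985344 to 2901692, of which 51.8 to 56.6% lay on Lars2, Tmem38b and Mettl26, so that RNA values of the 34 genes rest on fewer reads. A gene is called higher or lower at an adjusted p under 0.05 from limma, with adjustment over all transcripts tested. As a check of the label, the summed level of 6 ductal epithelial markers in footprints was 9280 to 9720 with PBS and 9260 to 9320 at 6 h, and it was 6560 to 6720 at 21 h. In RNA the sum was 1440 to 1530 with PBS, 1460 to 1530 at 6 h and 1240 to 1260 at 21 h. All 6 were detected, while the summed footprints of 3 fibroblast markers were at most 8.74 (8.39 to 8.74 with PBS and 3.09 to 5.93 at 21 h), those of 3 leukocyte markers at most 5.28 (1.43 to 2.39 with PBS and 2.87 to 5.28 at 21 h, with Cd3e at 0), those of 2 endothelial markers at most 0.663 and those of 3 acinar markers at most 6.0 (1.67 to 3.29 with PBS and 5.99 to 6.0 at 21 h, with Cpa1 and Amy2a5 at 0). In bulk lysates, fewer cells of a type and less RNA per cell cannot be told apart.

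With PBS, the members' levels spanned a wide range even within a complex. In SRP, whose proteins are assembled on a common RNA, the footprint level was highest for Srp14 (ENSMUSG00000009549) at 546 ± 9.67 (SD, n = 2) and lay at 132 ± 4.89 for its partner Srp9, at 127 ± 4.53 for Srp68 and at 139 ± 4.40 for the Srp68 partner Srp72. Srp19, which helps SRP RNA fold, was measured at 299 and 480 in the PBS libraries and at 411 and 221 in the 21 h libraries, a spread between replicates wider than any difference between groups. Of the receptor, the docking subunit Srpr was at 32.6 ± 0.870 and the membrane anchor Srprb at 87.7 ± 0.928. Srp54a, which encodes the signal-binding GTPase of SRP, had 0 footprint reads in all 6 libraries and 1 to 12 RNA reads, and was the only member not tested. Its near-identical copy Srp54c had 15 to 41 footprint reads per library and was not called at 21 h (log2 fold change -0.37, SE 0.28, adjusted p = 0.316), and reads of such copies can be split or lost when they are assigned.

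The channel itself showed the same unevenness. Sec61a1, the pore-forming subunit, had a footprint level of 240.5 ± 7.46 (SD, n = 2) with PBS, while its paralog Sec61a2 was at 16.2 ± 2.38. The small channel subunits also differed, with Sec61g at 552 and 397 and Sec61b at 91.5 and 69.1 in the PBS libraries. TRAP subunits ranged from 127 ± 6.11 (Ssr4) to 655 ± 22.0 (Ssr3), the highest level among the 34 genes. In OST, the catalytic Stt3a was at 119 ± 5.68 and the catalytic Stt3b at 61.9 ± 0.224, and of the alternative oxidoreductase subunits Tusc3 was at 112 ± 12.0 and Magt1 at 41.5 ± 0.972. In the signal peptidase, the catalytic Sec11a was at 147 ± 13.7 and its paralog Sec11c at 28.1 ± 4.80. In each of the pairs Sec61a1 and Sec61a2, Sec61g and Sec61b, Stt3a and Stt3b, Tusc3 and Magt1, and Sec11a and Sec11c, the libraries of the genes did not overlap. All 34 genes together took 0.474 to 0.499% of the footprint reads of a library and 0.511 to 0.532% of the RNA reads outside Lars2, Tmem38b and Mettl26.

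**Figure D1:**
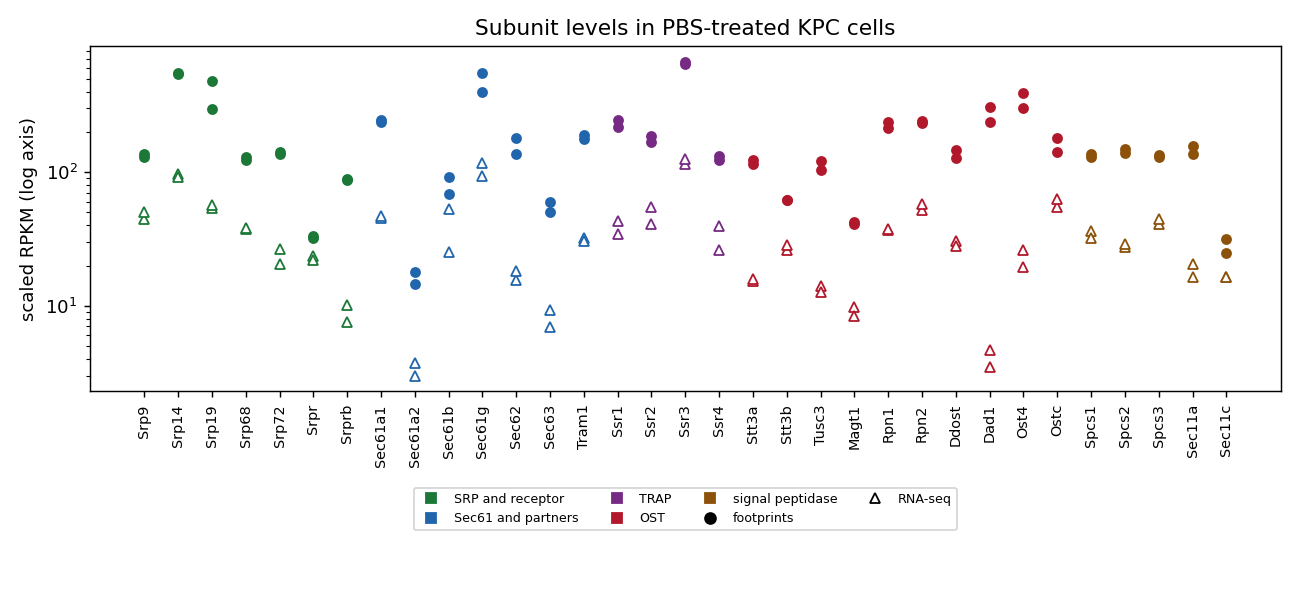
Scaled RPKM of 33 subunits (horizontal axis, colored by complex) in the 2 PBS libraries of each assay, on a log axis. Filled circles are footprints and open triangles RNA-seq. Ssr3 has the highest footprint level (655) and Sec61a2 the lowest (16.2), and the Dad1 RNA value is divided by a transcript of 3491 bases.

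The ratio of footprint RPKM to RNA RPKM with PBS had a median of 5.08 over the 33 tested members, against 3.49 over all 9295 transcripts tested in both assays, and 25 of the 33 lay above the latter. As a description, it was low for Srpr (1.43), Sec11c (1.71), Sec61b (2.06) and Stt3b (2.27), and high for Srprb (9.95) and Ost4 (15.2). These high ratios depend on the transcript chosen. Srprb has a coding sequence of 807 bases in a transcript of 3064, with 57 and 91 RNA reads with PBS. Ost4 has 111 coding bases in 1144, with 73 and 66 RNA reads. The ratio of 66.7 for Dad1 depends on the transcript chosen for it, which has 3491 bases around a coding sequence of 339, and only 36 and 40 RNA reads stood behind it with PBS.

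Because XBP1 is known to act through a short promoter element, promoters of 3 members are shown here as examples. They are Srp14 and Dad1, whose footprints were called higher at 21 h, and Stt3b, whose footprints were called lower. Each is the 250 bases before the gene's start, 5′ to 3′ on the gene's strand (the minus strand for all 3), from RefSeq on GRCm38.p6: chr2:118479697-118479946 for Srp14, chr14:54253930-54254179 for Dad1 and chr9:115310469-115310718 for Stt3b. The capitals mark the core GACGTG of the XBP1 element or its reverse complement.
Srp14: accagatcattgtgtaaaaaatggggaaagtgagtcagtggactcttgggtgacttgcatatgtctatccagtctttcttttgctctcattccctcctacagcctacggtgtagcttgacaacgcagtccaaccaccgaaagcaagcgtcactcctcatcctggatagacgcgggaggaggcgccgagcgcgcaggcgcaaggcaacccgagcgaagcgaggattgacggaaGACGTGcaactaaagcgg
Dad1: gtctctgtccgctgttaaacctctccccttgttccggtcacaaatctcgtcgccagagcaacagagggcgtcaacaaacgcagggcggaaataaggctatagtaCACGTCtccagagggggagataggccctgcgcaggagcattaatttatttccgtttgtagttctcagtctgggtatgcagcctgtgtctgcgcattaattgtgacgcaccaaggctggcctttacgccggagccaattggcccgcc
Stt3b: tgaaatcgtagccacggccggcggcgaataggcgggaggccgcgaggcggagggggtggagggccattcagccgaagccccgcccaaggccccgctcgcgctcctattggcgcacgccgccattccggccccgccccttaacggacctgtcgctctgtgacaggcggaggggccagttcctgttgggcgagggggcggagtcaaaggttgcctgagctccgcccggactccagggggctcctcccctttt
The core begins 18 bases before the start in Srp14 and 146 bases before it, on the opposite strand, in Dad1, and no copy is in the Stt3b window. Windows of 300 bases (250 before and 50 after the start) were in the table for 25 of the 34 members, and 5 of these held the core on either strand (Srp14, Srpr, Sec63, Ssr1 and Dad1), 20%, against 7.15% of 27025 genes. The longer forms, TGACGTGG, the ER stress element (CCAAT, 9 bases and CCACG) and its second form (ATTGG, 1 base and CCACG), were in 0 of 25 members and in 0.714%, 0.137% and 0.0444% of genes. Any TGACGTGG also counts as a core. Of the 5 members with the core, Srp14 and Dad1 were called higher and Sec63 lower in footprints at 21 h, and Srpr and Ssr1 were not called. Over all 10383 transcripts, 18.9% were called higher and 20.2% lower. The Dad1 and Sec63 calls were lost when single libraries were left out, as given below. The sequences shown are examples, and Sec63, which holds the core and was lower, is not among them. A match of letters is a description and not a site of binding.

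Whether this machinery had changed early was asked at 6 h. No member passed the test in either assay: 0 of 33 were called in footprints, where 1.05% of 10383 transcripts were called higher and 0.992% lower, and 0 of 33 in RNA, where 0% of 9443 were called in each direction. At an unadjusted p under 0.05 there were 6 members in footprints and 3 in RNA (limma), beside 2217 and 1086 of all transcripts. With limma's voom on whole reads, 0 members were called in footprints and 1 in RNA (531 and 721 transcripts higher and lower in footprints, 65 and 161 in RNA). That member was Sec62, a channel partner for chains that arrive after synthesis, with a log2 fold change of -0.54 and an adjusted p of 0.0363 by voom. Its RNA level was 15.6 and 18.3 with PBS and 11.5 and 11.6 at 6 h, which does not overlap, and 0.290 was its adjusted p from limma on RPKM. Among footprints the lowest adjusted p was 0.148, for Srp14, at a log2 fold change of 0.21 (95% confidence interval 0.05 to 0.38). Fold changes of the 33 members in footprints lay between -0.40 (Srp19) and 0.32 (Sec61b), with a median of -0.05 against -0.01 over all transcripts.

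At 21 h, footprints of 14 of the 33 members passed the test. Higher were 5 members, 15.2% of those tested against 18.9% of all 10383 transcripts, and 9 were lower, 27.3% against 20.2%. Neither share lies far from its background, and the median log2 fold change of the members was -0.03 against 0.01 over all transcripts. By complex, SRP and its receptor had 4 of 7 tested genes higher and 0 lower (median 0.29), and OST had 1 of 10 higher and 6 lower (median -0.34). The Sec61 channel and its partners had 0 of 7 higher and 2 lower, TRAP 0 of 4 higher and 1 lower, and the signal peptidase 0 of 5 in either direction (1 at an unadjusted p under 0.05 from limma, and 0 by voom, beside 5045 of all 10383 transcripts at that p and 2241 higher and 2417 lower by voom). Complexes were not tested against each other. In the same footprint libraries the summed epithelial and fibroblast markers given above were lower and the leukocyte and acinar sums higher. In RNA at 21 h the epithelial sum was also lower and the leukocyte sum higher. The fibroblast and acinar RNA sums overlapped those with PBS. Cpa1 and Amy2a5 were at 0 in both assays, and Ptprc and Cd3e were at 0 in RNA, so the acinar and leukocyte sums rest on few genes at low levels. The part of these markers in the footprint results was not tested. When single libraries were left out, some of the 14 calls were lost. Sec61g, Ostc and Srp19, which are not among the 14, each gained a call in such a fit, as given below. Without the trend of variance with expression 9 were called (2 higher and 7 lower).

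**Figure D2:**
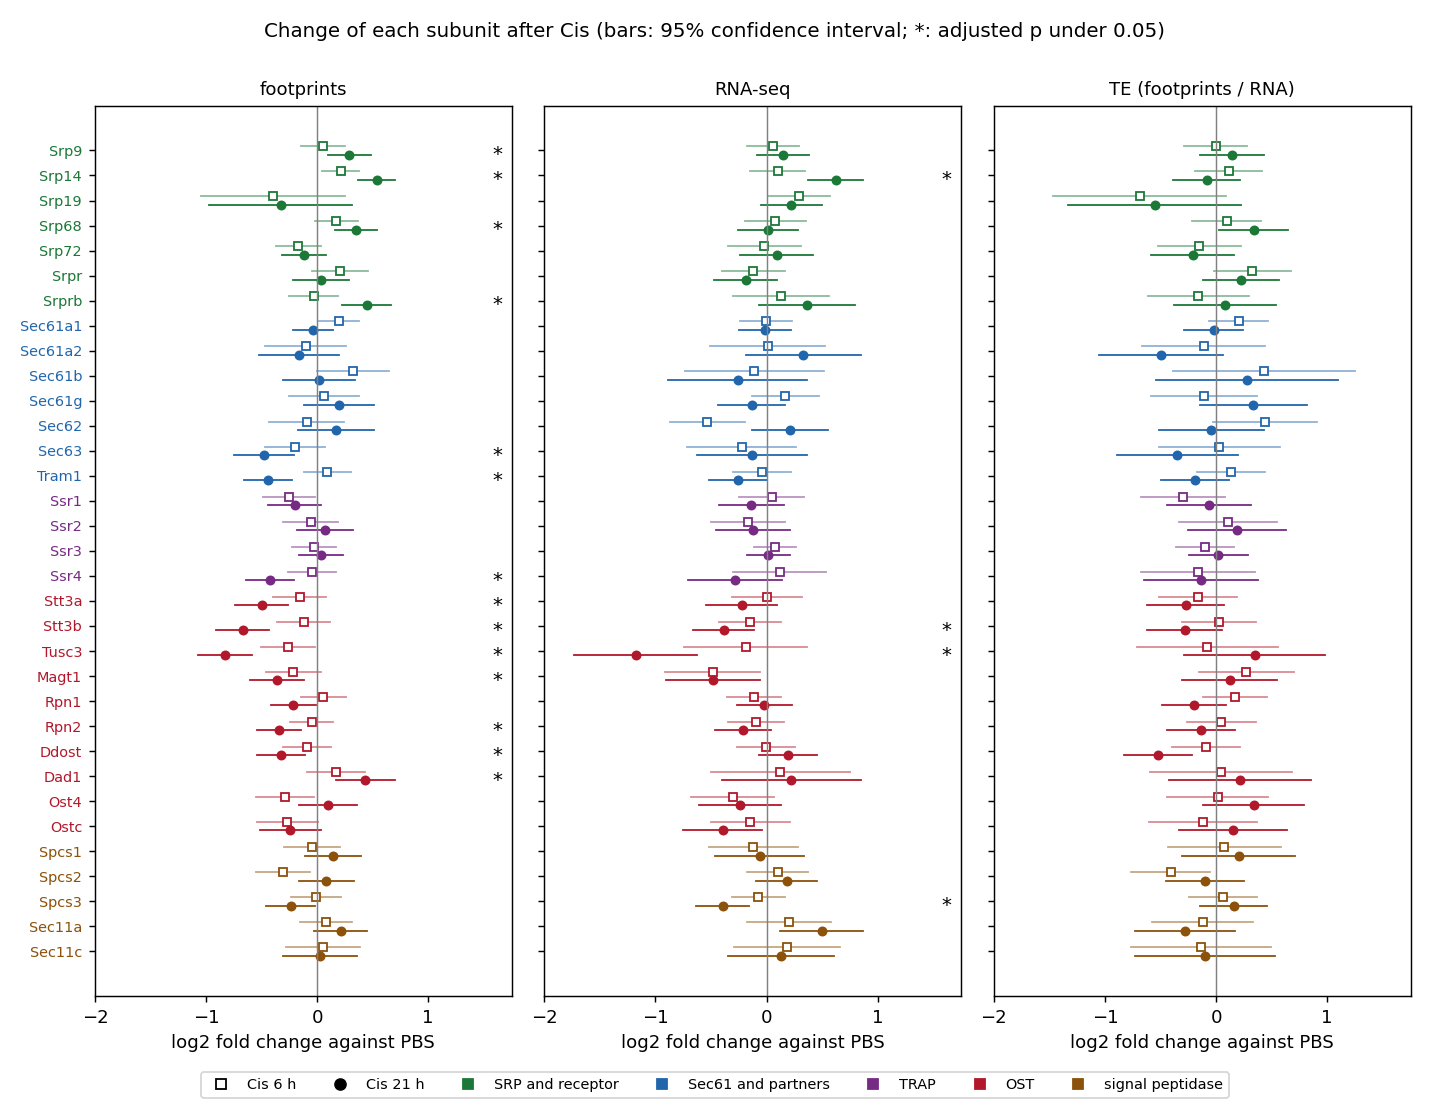
Log2 fold change of each subunit against PBS at 6 h (open squares) and 21 h (filled circles) in footprints, RNA-seq and TE, with 95% confidence intervals from limma, colored by complex. Asterisks mark an adjusted p under 0.05. They appear only at 21 h, on 14 subunits in footprints, 4 in RNA-seq and 0 in TE.

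SRP genes that rose at 21 h include the pair at its elongation arrest end. Srp14 had a footprint level of 539 and 553 with PBS, 614 and 653 at 6 h and 785 and 799 at 21 h, so the groups did not overlap. The rise at 21 h was 0.54 (log2 scale, SE 0.07, adjusted p = 0.000778). Srprb, the membrane anchor of the receptor, was at 87.0 and 88.4 with PBS, 84.7 and 87.0 at 6 h and 112 and 127 at 21 h. Its 21 h libraries lie above the other 4, with a rise of 0.44 (SE 0.10, adjusted p = 0.00704). The other receptor subunit, Srpr, was at 33.2 and 32.0 with PBS and 32.3 and 34.5 at 21 h, overlapping groups with a log2 fold change of 0.03 (95% confidence interval -0.22 to 0.29). Srp68, which binds SRP RNA together with Srp72, rose by 0.35 (adjusted p = 0.0108), while Srp72 was at -0.12 (adjusted p = 0.318). Srp9, the partner of Srp14, rose by 0.29 (adjusted p = 0.0266). Srp19, with its widely spread replicates, was at -0.33 (interval -0.97 to 0.32), and without 21 h replicate 1 it was called lower (-0.77, adjusted p = 0.0386). The Srp68 call was lost without PBS replicate 1 (0.31, adjusted p = 0.0515) and without the variance trend (adjusted p = 0.0513). The Srp9 call was lost under 7 of 14 alternatives, among them the removal of PBS replicate 1 (0.25, adjusted p = 0.107), PBS replicate 2 (0.33, adjusted p = 0.0522) or 21 h replicate 1 (0.25, adjusted p = 0.101) and quantile normalization (0.21, adjusted p = 0.0797).

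The core of the Sec61 channel gave no call at 21 h, and 2 of its membrane partners fell. Sec61a1 was at 246 and 235 in footprints with PBS, 278 and 273 at 6 h and 227 and 243 at 21 h. Its 21 h libraries overlap those with PBS, and the log2 fold change of -0.03 has a 95% confidence interval of -0.22 to 0.15. Sec61a2 was at 17.9 and 14.6 with PBS and 14.1 and 14.6 at 21 h (-0.16, interval -0.52 to 0.20), on 69 to 134 reads per library. The small subunits were not called either: Sec61b was at 74.7 and 87.0 at 21 h, within its PBS range of 69.1 to 91.5 (0.02, interval -0.31 to 0.35). Sec61g was at 513 and 564 at 21 h and 397 and 552 with PBS (0.20, interval -0.12 to 0.52), and without PBS replicate 1 it was called higher (0.43, adjusted p = 0.0135). Tram1, a membrane protein that touches the entering chain, was at 178 and 189 with PBS, 203 and 188 at 6 h and 143 and 127 at 21 h. It fell by 0.44 (log2 scale, SE 0.09, adjusted p = 0.00631), and its 21 h libraries lie below the 4 others. Sec63, a J-domain protein that brings the chaperone BiP to the channel, fell by 0.48 (SE 0.12, adjusted p = 0.0124). Its partner Sec62 was at 0.17 (adjusted p = 0.396), and under the alternatives run it ranged from -0.04 to 0.37 without a call. The Sec63 call was lost without PBS replicate 2 (-0.36, adjusted p = 0.0839) and without 21 h replicate 2 (-0.41, adjusted p = 0.0618).

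TRAP binds the ribosome at the channel and helps chains with weak signal sequences. Of its subunits, Ssr4 fell by 0.42 in footprints at 21 h (log2 scale, SE 0.09, adjusted p = 0.00837), from 123 and 132 to 89.5 and 100.4, with no overlap. Ssr1, Ssr2 and Ssr3 were not called, with log2 fold changes of -0.20, 0.07 and 0.04.

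In OST the falls took in both catalytic subunits and both alternative oxidoreductases. Tusc3 (ENSMUSG00000118664) had a footprint level of 120.3 and 103 with PBS, 88.9 and 96.6 at 6 h and 62.8 and 62.0 at 21 h, and the 3 groups did not overlap. The fall at 21 h was 0.83 (log2 scale, SE 0.11, adjusted p = 0.000562), the largest among the members. Magt1, which takes the same place in OST, was at 42.2 and 40.8 with PBS, 35.6 and 35.8 at 6 h and 31.5 and 32.9 at 21 h, again without overlap. It fell by 0.36 (adjusted p = 0.0275), but the call was lost without any 1 of the 4 libraries compared (-0.39 to -0.32, adjusted p 0.0598 to 0.106). Stt3b (ENSMUSG00000032437) was at 61.7 and 62.0 with PBS, 55.7 and 58.1 at 6 h and 40.8 and 36.7 at 21 h. Its fall of 0.67 (SE 0.10, adjusted p = 0.00145) exceeds the spread of its replicates. Stt3a was at 115 and 123 with PBS, 100.4 and 114 at 6 h and 80.1 and 88.7 at 21 h, and fell by 0.50 (SE 0.10, adjusted p = 0.00592). For both catalytic subunits the 21 h libraries lie below all the others.

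Of the OST subunits shared by both forms, Rpn2 and Ddost fell and Dad1 rose. Dad1, a small membrane subunit, was at 307 and 237 in footprints with PBS, 310.1 and 298 at 6 h and 365 in both 21 h libraries. It rose by 0.44 (log2 scale, SE 0.12, adjusted p = 0.0175), with the PBS libraries far apart from each other. Without PBS replicate 2 the difference was 0.25 (adjusted p = 0.0705), without 21 h replicate 2 it was 0.44 (adjusted p = 0.0537), and without the variance trend the adjusted p was 0.0755. Rpn2, a large subunit of the shared core, fell by 0.34 (adjusted p = 0.0135), while Rpn1 was at -0.22 (adjusted p = 0.0851). Rpn1 was called lower with voom (adjusted p = 0.0324) and with quantile normalization (-0.28, adjusted p = 0.0341). Ddost, another large core subunit, fell by 0.33 (adjusted p = 0.0244). The Rpn2 call was lost without PBS replicate 1 (-0.32, adjusted p = 0.0579) or 21 h replicate 1 (-0.29, adjusted p = 0.0636). The Ddost call was lost without PBS replicate 1 (-0.24, adjusted p = 0.122), 21 h replicate 1 (-0.31, adjusted p = 0.0761) or 21 h replicate 2 (-0.33, adjusted p = 0.0698), and all 3 of Rpn2, Ddost and Dad1 failed without the variance trend. The short Ost4, with a coding sequence of 111 bases, and the STT3A form's Ostc were not called (0.10 and -0.24), and without PBS replicate 2 Ostc was called lower (-0.42, adjusted p = 0.0242).

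The signal peptidase gave no call in footprints against PBS at 21 h. Its catalytic subunit Sec11a was at 137 and 156 with PBS, 157 and 152 at 6 h and 159 and 181 at 21 h, a log2 fold change of 0.21 (95% confidence interval -0.02 to 0.45). The paralog Sec11c was at 24.7 and 31.5 with PBS and 29.7 and 27.3 at 21 h (0.03, interval -0.31 to 0.36). The accessory subunits Spcs1, Spcs2 and Spcs3 were at 0.14, 0.08 and -0.24, and for Spcs3, which the catalytic subunits need for cleavage, the interval was -0.46 to -0.02 at an adjusted p of 0.0852. With quantile normalization Spcs3 was called lower (-0.32, adjusted p = 0.0291).

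**Figure D3:**
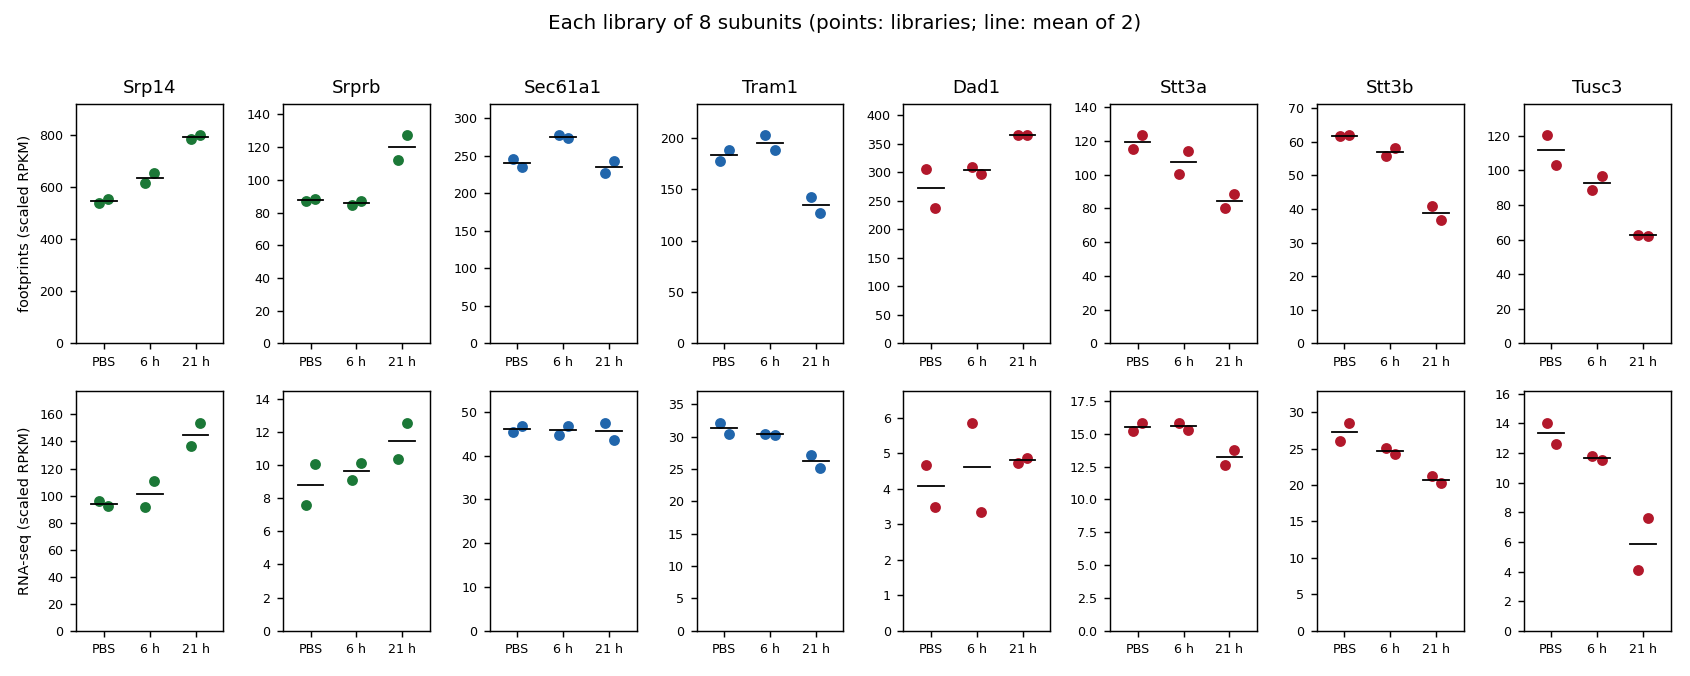
Scaled RPKM of 8 subunits in each library with PBS and at 6 h and 21 h of Cis, footprints above and RNA-seq below. Points are libraries and lines the mean of 2, and each vertical axis starts at 0. The 21 h footprint points lie above the others for Srp14, Srprb and Dad1 and below them for Tram1, Stt3a, Stt3b and Tusc3, and overlap the PBS points for Sec61a1.

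In RNA at 21 h, 1 of 33 members was higher (3.03%, against 11.6% of 9443 transcripts) and 3 were lower (9.09%, against 12.2%), fewer members than in footprints. Srp14 RNA was at 96.0 and 92.0 with PBS, 91.5 and 111 at 6 h and 136 and 154 at 21 h. It rose by 0.62 (log2 scale, SE 0.11, adjusted p = 0.00384), beside 0.54 in footprints. Tusc3 RNA was at 14.1 and 12.6 with PBS, 11.8 and 11.5 at 6 h and 4.10 and 7.62 at 21 h. It fell by 1.18 (SE 0.25, adjusted p = 0.00852), with no overlap but with the 21 h libraries far apart. Without 21 h replicate 1 the difference was -0.77 (adjusted p = 0.0327), and without 21 h replicate 2 it was -1.58 (adjusted p = 0.00248). The Tusc3 call was lost without PBS replicate 1 (-1.11, adjusted p = 0.0621). Stt3b RNA was at 26.1 and 28.6 with PBS and 21.2 and 20.3 at 21 h, and fell by 0.39 (adjusted p = 0.0478). Spcs3 RNA was at 41.0 and 44.3 with PBS and 32.5 and 32.1 at 21 h, and fell by 0.40 (adjusted p = 0.0260). Both genes have libraries that do not overlap, yet both calls were lost without any 1 of the 4 libraries compared (Stt3b -0.46 to -0.33, adjusted p 0.104 to 0.227; Spcs3 -0.46 to -0.34, adjusted p 0.0718 to 0.148). Without PBS replicate 1 Srp14 was the 1 member still called, and without 21 h replicate 2 there were 2. Without the variance trend Tusc3 was the 1 member called, and the Srp14 rise then had an adjusted p of 0.0533.

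The remaining paralogs and partners were not called in RNA. Sec61a1 RNA was at 45.3 and 46.7 with PBS and 47.5 and 43.7 at 21 h, a log2 fold change of -0.01 (95% confidence interval -0.25 to 0.22). Sec61b RNA was 52.7 and 25.2 in the PBS libraries, too far apart to judge a change (-0.26, interval -0.89 to 0.37), and without PBS replicate 2 it was called lower (-0.79, adjusted p = 0.0347). Stt3a RNA was at -0.22 and Magt1 RNA at -0.48 (adjusted p = 0.0931), and Magt1 was called lower with voom (adjusted p = 0.0279). Ostc RNA was at -0.40 (adjusted p = 0.101), and it was called lower with voom (adjusted p = 0.0286) and without 21 h replicate 1 (-0.64, adjusted p = 0.0178). Sec11a RNA, at 16.3 and 20.5 with PBS and 28.7 and 23.5 at 21 h, had a difference of 0.49 (adjusted p = 0.0599), which passed with the RPKM as deposited, without scaling (0.58, adjusted p = 0.0317), and with a minimum mean of 5 RPKM (adjusted p = 0.0483).

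Whether translation had moved apart from mRNA was tested as TE, the change of footprints minus the change of RNA. At 6 h, 0 of 33 members were called (1 at an unadjusted p under 0.05 from limma, and 0 by voom), where 0% of 9295 transcripts were called in each direction (710 at an unadjusted p under 0.05, and 5 higher and 9 lower by voom). At 21 h, 0 of 33 were called as well (2 at an unadjusted p under 0.05, and 0 by voom), where 0.258% of 9295 transcripts were called higher and 0.151% lower (1183 at an unadjusted p under 0.05, and 79 higher and 76 lower by voom). Ddost came nearest, with a TE change of -0.52 (95% confidence interval -0.83 to -0.21, adjusted p = 0.148), as its footprints fell by 0.33 and its RNA was at 0.19. Srp68 was at 0.34 (interval 0.02 to 0.65, adjusted p = 0.358), with footprints at 0.35 and RNA at 0.01. Its TE change lay between 0.21 and 0.46 under the alternatives run. For the members with the steepest footprint changes, the TE intervals include 0: Tusc3 at 0.35 (-0.29 to 0.98), Stt3b at -0.28 (-0.62 to 0.05), Stt3a at -0.27 (-0.62 to 0.07) and Srp14 at -0.08 (-0.38 to 0.22). Intervals this wide do not show that TE stayed the same. Under the alternatives run, Tusc3 TE ranged from -0.06 to 0.75 and so took both signs.

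Between 6 h and 21 h of Cis, footprints of 4 of 33 members were higher (12.1%, against 15% of 10383 transcripts) and 7 were lower (21.2%, against 15.7%). The 21 h libraries also entered the comparison with PBS, so the 2 sets of calls are not independent. Tusc3 fell by 0.57 between the time points (adjusted p = 0.00526), Stt3b by 0.55 (adjusted p = 0.00557) and Tram1 by 0.53 (adjusted p = 0.00404), and for each of them the 21 h libraries lie below those at 6 h. Srprb rose by 0.48 (adjusted p = 0.00763). The Tusc3 call was lost without 6 h replicate 2 (-0.50, adjusted p = 0.0510) and the Srprb call without 6 h replicate 1 (0.46, adjusted p = 0.0546). The accessory peptidase subunit Spcs2 was at 148 and 139 in footprints with PBS, 120 and 113 at 6 h and 167 and 139 at 21 h, and its rise from 6 h was 0.39 (adjusted p = 0.0263). Ost4, which steadies the catalytic subunit, was at 390.3 and 303 with PBS, 287 and 276 at 6 h and 361 and 375 at 21 h, and rose by 0.39 from 6 h (adjusted p = 0.0348). The Spcs2 call was lost without 6 h replicate 1 (0.43, adjusted p = 0.0804), 6 h replicate 2 (0.35, adjusted p = 0.145) or 21 h replicate 1 (0.25, adjusted p = 0.125), and without 21 h replicate 2 the rise was 0.53 (adjusted p = 0.0135). The Ost4 call was lost under 7 of 14 alternatives, among them the removal of any 1 of the 4 libraries compared (0.36 to 0.41, adjusted p 0.0740 to 0.156). For Spcs2 and Ost4 the 6 h libraries are the lowest, and at 21 h the values overlap those with PBS. In all, 3 members remained called without 6 h replicate 1, 3 without 6 h replicate 2, 5 without 21 h replicate 1 and 8 without 21 h replicate 2, and 4 without the variance trend. Tram1 and Stt3b passed under every alternative run. Sec61a1, at -0.23 between the time points (adjusted p = 0.0589), was called lower with voom (adjusted p = 0.0153), as were Sec63 (adjusted p = 0.0272) and Ddost (adjusted p = 0.0358). With quantile normalization Sec61a1 (adjusted p = 0.0306) and Ddost (adjusted p = 0.0468) were called lower as well. Called higher were Dad1 with only the groups compared in the model (0.27, adjusted p = 0.0288) and Srp9 with the RPKM as deposited (0.26, adjusted p = 0.0485).

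In RNA, 2 members were higher at 21 h than at 6 h (6.06%, against 7.53% of 9443 transcripts) and 1 was lower (3.03%, against 8.21%). Sec62 RNA, low at 6 h, went from 11.5 and 11.6 to 18.4 and 21.0, a rise of 0.74 (log2 scale, SE 0.15, adjusted p = 0.0115) to just above the 15.6 and 18.3 with PBS, against which it was not called (0.21, adjusted p = 0.348). Without 21 h replicate 2 its adjusted p was 0.0738 (0.64). Srp14 RNA rose by 0.52 (adjusted p = 0.0134), a call lost without 6 h replicate 1 (0.38, adjusted p = 0.0797) and without 21 h replicate 2 (0.43, adjusted p = 0.0832). Tusc3 RNA fell by 0.99 (adjusted p = 0.0252), and of the 4 libraries its call held only when 21 h replicate 2 was left out (-1.40, adjusted p = 0.00686). Without 21 h replicate 1 the difference was -0.59 (adjusted p = 0.103), without 6 h replicate 1 it was -0.98 (adjusted p = 0.0906) and without 6 h replicate 2 it was -1.01 (adjusted p = 0.0808). Spcs3 RNA, at -0.32 (adjusted p = 0.0728), was called lower with voom (-0.35, adjusted p = 0.0139) and with quantile normalization (-0.40, adjusted p = 0.0407).

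The members called lower in footprints at 21 h had a longer median coding sequence than those called higher, with overlapping ranges. Coding length was 258 to 1875 bases (median 339) for the 5 higher members, 519 to 2469 (median 1323) for the 9 lower and 111 to 2013 (median 618) for the 19 not called. Across the 33 members, Spearman's rho between coding length and the footprint change at 21 h was -0.474, and across all 10383 transcripts it was -0.209. At 6 h it was -0.123 over the members and -0.255 over all, and for RNA at 21 h -0.0889 and -0.105. These are descriptions across genes measured in the same libraries, and genes are not independent replicates. Srp68, with 1875 bases, rose, and Ssr4, with 519, fell, so neither direction was confined to short or to long members. The part of length in the footprint changes was not tested.

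**Figure D4:**
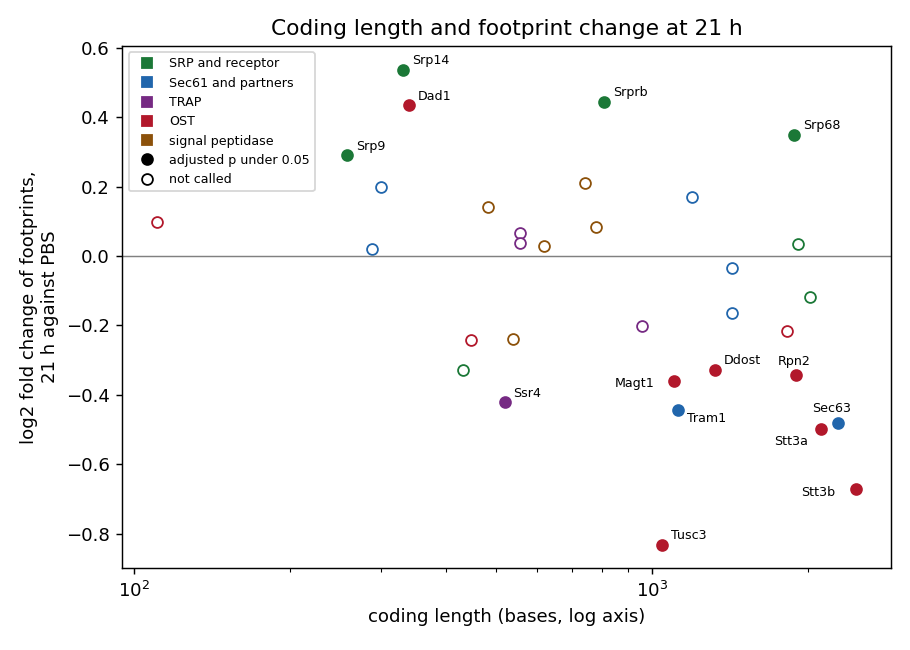
Coding length in bases (log axis) against the log2 fold change of footprints at 21 h for 33 subunits, colored by complex. Filled points passed an adjusted p under 0.05. Spearman's rho is -0.474, with Srp14 and Dad1 short and higher, Stt3b and Stt3a long and lower, and Srp68 long and higher.

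Genes that act next to these complexes were counted in footprints at 21 h in the same way, where 18.9% of all 10383 transcripts were called higher and 20.2% lower. No list of them is read as differing from that background. Of 23 measured genes of other routes into the ER membrane (the EMC insertase, the GET pathway for tail-anchored proteins and partners of the channel for multipass proteins), 5 were higher and 2 lower, with a median of 0.12. The extremes were Caml, the GET receptor subunit, at 1.07 (SE 0.15, adjusted p = 0.000833), and Emc2, the cytosolic scaffold of EMC, at -0.75 (SE 0.12, adjusted p = 0.00179). Of 27 genes that build, flip or trim the dolichol-linked glycan which OST transfers, 4 were higher and 6 lower, with a median of -0.10. Here the extremes were Alg1 at 1.07 (adjusted p = 0.00838) and Alg9 at -1.67 (adjusted p = 0.000790), both of them mannosyltransferases of the pathway. Of 6 further measured subunits and partners, 1 was higher (Tmem258, an OST subunit, at 0.47, adjusted p = 0.0251, while its RNA was lower, at -0.52, adjusted p = 0.0489) and 2 were lower (Tram2, a Tram1 paralog, at -1.01, adjusted p = 0.0266, and Naca, of the nascent chain complex at the ribosome exit, at -0.51, adjusted p = 0.00573). In RNA at 21 h the counts higher and lower were 5 and 3 of 23, 0 and 2 of 27, and 0 and 3 of 5, where 11.6% of all 9443 transcripts were called higher and 12.2% lower.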

How the data were processed

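Ribosome profiling and RNA-seq were performed on KPC cells with PBS or Cis, 12 libraries in all. The authors deposited RPKM for a representative transcript of each gene in each library, with replicates not pooled, over the coding length for footprints and the transcript length for RNA-seq. The submitters' processing notes name cutadapt, STAR and GRCm39, with no versions. Transcripts not listed in a library were taken as 0. RPKM times length, divided by the smallest such product of the library (1 read), came within 0.01 of a whole number for 100% of the values, and the sum of these reads gave the depth.

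Libraries of an assay were brought to a common scale with median-of-ratios factors. Transcripts whose scaled RPKM averaged 1 or more were fitted as log2(RPKM + 0.5) in limma 3.58.1 (R 4.3.3), with a variance trend and the 3 groups of an assay in a single model. This scale understates changes at low RPKM. TE was fitted over the 12 libraries as the assay by treatment interaction. All p-values are two-sided, adjusted by Benjamini-Hochberg over all transcripts tested. An exact permutation test of 2 against 2 libraries cannot give a p below 0.333. The chi-square per degree of freedom between the replicates of a group was 1.45 to 3.97, so no pair was treated as repeat files of a single library. This does not show that they came from separate cultures. Intervals are 95% confidence intervals from limma.

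The members and the lists of related and marker genes were chosen with earlier results of these data known. Values per library are given for the 3 called members with the largest non-overlapping changes in each direction and for chosen pairs of paralogs or partners. Ssr4 is given in the same way and was added after its values were seen, as were the calls that hold under single alternatives. As alternatives, the pseudocount was set to 0.1 or 1, the minimum to 5 RPKM or none, and the fit was run with no scaling or quantile normalization, no variance trend, a replicate block, voom on the whole reads, only the groups compared, and each library left out. The fits were tested on simulated data. Promoter sequences are from RefSeq. Python 3.11.15, pandas 2.3.3, numpy 2.4.6 and matplotlib 3.10.9 were used.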

Additional observations from a re-analysis of the deposited data

Results flagged for a closer look

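Some members changed by a different amount at 21 h than at 6 h, by the test of the 2 time points against each other (limma, adjusted over all transcripts). In footprints the change at 21 h minus the change at 6 h, on the log2 scale, was 0.3229 for Srp14, 0.4751 for Srprb, 0.3863 for Ost4 and 0.3898 for Spcs2. It was -0.3769 for Ssr4, -0.535 for Tram1, -0.2719 for Rpn1, -0.294 for Rpn2, -0.3422 for Stt3a, -0.5503 for Stt3b and -0.5664 for Tusc3. In RNA it was 0.7437 for Sec62, 0.5204 for Srp14 and -0.9907 for Tusc3. Of these, the footprint differences of Tram1 and Stt3b passed under every alternative run, and each of the others was lost under at least 1.

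Sec62 RNA and the footprints of Ost4 and Spcs2 were lowest at 6 h, and none of these was called at 6 h against PBS with RPKM. No group had the 4 libraries that a test for outlying libraries would need.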

How the results depend on the processing

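Of 264 tested results on single members, 32 were called and 9 of these were called under every alternative run: the footprint changes at 21 h against PBS of Srp14, Srprb, Ssr4, Tram1, Stt3a, Stt3b and Tusc3, and those at 21 h against 6 h of Tram1 and Stt3b. Of 3884 values under alternatives, 92 lost a call, 22 gained 1 and 0 passed in the opposite direction. Without the variance trend, the members called were 9 in footprints at 21 h (14 as reported), 4 in footprints at 21 h against 6 h (11), 1 in RNA at 21 h (4) and 1 in RNA at 21 h against 6 h (3). With voom, 1 was called in RNA at 6 h (0). Leaving out each library in turn gave 3 to 8 in footprints at 21 h against 6 h, 1 to 3 in RNA at 21 h and 1 to 2 in RNA at 21 h against 6 h. The cause was not tested. The leave-one-out fits with a lone library in a group assume that it varies like the other groups. Members called in them can include some not called in the full fit, as Sec61b and Ostc in RNA at 21 h against PBS.

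With the replicate number as a block, the counts were 0, 14 and 9 in footprints (6 h, 21 h, 21 h against 6 h), 0, 3 and 3 in RNA and 0 and 0 in TE. The numbers did not pair the samples, as deviations of libraries with the same number correlated at -0.0143 to 0.0215 across transcripts. RNA values rest on 862476 to 1341584 reads outside the 3 most abundant transcripts, and footprint values on 3375480 to 5204127, and the part of depth in the number of calls was not tested. Read numbers reflect counting error only.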
